A study of Homo sapiens with 2 samples.

Results

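Interferon-stimulated genes are the genes that a cell switches on when interferon, a secreted antiviral signal, binds its receptors. A list of 47 such genes was taken by gene symbol from the 50868 genes of the expression table, and all 47 were found. The table holds RNA-seq of Molm13 (MOLM-13), an established human acute myeloid leukemia line, with 1 library whose genotype is given as Vector (OE-Control) and 1 library whose genotype is given as Over-expression UNC5B. Both cultures were kept in RPMI medium with fetal bovine serum, with no interferon or drug named in the labels. According to the methods, UNC5B, a receptor for netrin-1, was delivered by a lentivirus in which a CMV promoter drives tagged UNC5B next to mCherry and a puromycin resistance gene, and infected cells were selected with puromycin. No time after infection is given, and a single line and a single pair of cultures stand behind every value below.

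Double-stranded RNA in the cytosol is sensed by helicases such as RIG-I and MDA5, which signal through MAVS to switch on interferon genes. Secreted type I interferon then acts through the IFNAR receptor, the kinases JAK1 and TYK2 and the factor ISGF3, a complex that holds STAT2 and IRF9. ISGF3 binds a short DNA element, the interferon-stimulated response element (ISRE), near the start of its target genes, whereas interferon gamma acts through a STAT dimer at another element, the gamma-activated site (GAS).

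The targeted gene was examined first. Neither Vector nor the library labelled OE-UNC5B held a read of UNC5B (0 and 0). The counts thus do not show the over-expression that the label names. The reason was not tested, and every direction given here rests on the labels alone. In this order of Vector first, which is kept for every pair of values below, the libraries held 13715566 and 15637137 counted reads, and a floor of 3 reads corresponds to 0.222 and 0.189 CPM (read counts scaled to library size, on totals scaled with edgeR's TMM factors). All 10 myeloid leukemia markers examined, CD33 and FLT3 among them, were detected in both libraries, from 127 reads for ITGAM in Vector upwards. The summed reads of the markers of other cell types were 5 and 5 for 6 endothelial genes, 26 and 10 for 6 fibroblast genes, 5 and 2 for 5 embryonic kidney or epithelial genes, and 69 and 104 for 6 lymphoid and plasmacytoid dendritic cell genes. Nearly all of the last were reads of CD3D (67 and 102), whereas CLEC4C and LILRA4, which mark the interferon-producing plasmacytoid dendritic cell, had 0 reads in both. Of the 10 myeloid markers, 4 were higher (CD33, FLT3, HOXA9 and MEIS1) and 4 lower (LYZ, MPO, SPI1 and CEBPA) in the test of reads described below. These are 40% in each direction, beside 22.8% of all genes tested higher and 24.2% lower. The median log2 fold change of the 10 was 0.05. The granule genes LYZ (51742 and 23700 reads) and MPO (3363 and 1553 reads) were the only ones past 2-fold (20%), where 3.39% of all genes were called lower. The part of these differences in the values below was not tested.

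Promoter sequence was available for 35 of the 47 genes, as 250 bases before to 50 bases after the start site in RefSeq (GRCh38.p14). The core of the ISRE was searched on both strands as TTTC, 2 bases of any kind and TTTC, which reads GAAA, 2 bases and GAAA on the other strand. A match was present for 22 of the 35 genes (62.9%), against 1195 of the 27305 genes in the promoter table (4.38%). The GAS core, TTCNNNGAA, was present for 9 of the 35 (25.7%) against 9.38% of all genes. With a longer ISRE core, which asks for a G before the first TTTC (a C after the last GAAA), the shares were 51.4% and 0.952%, and with a stricter GAS core (TTCCNGGAA) they were 8.57% and 1.44%. The ISRE matches are shown first for the 4 genes with a match that passed the test between the libraries, written 5′ to 3′ on the strand of the gene with the matches in capitals.
IFIH1 (chr2:162318685-162318863, minus strand): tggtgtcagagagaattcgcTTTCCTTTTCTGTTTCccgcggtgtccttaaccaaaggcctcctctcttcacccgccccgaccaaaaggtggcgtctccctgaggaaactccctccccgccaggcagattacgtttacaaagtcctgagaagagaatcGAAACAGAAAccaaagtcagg
SAMD9 (chr7:93118086-93118135, minus strand): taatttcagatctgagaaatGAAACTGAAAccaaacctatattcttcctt
ISG20 (chr15:88638927-88638976, plus strand): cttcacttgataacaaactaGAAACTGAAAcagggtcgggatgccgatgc
BST2 (chr19:17405725-17405780, minus strand): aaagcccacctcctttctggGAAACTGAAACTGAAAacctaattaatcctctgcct
IFIH1 carries matches on both strands, and the 2 copies in BST2 overlap. These 4 genes share the element, and IFIH1, SAMD9 and ISG20 were higher and BST2 was lower in the library labelled OE-UNC5B, as described below. A match is a run of letters and not a measured binding site.

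The same element is shown for 3 genes that textbooks use as readouts of interferon and that did not pass the test between the libraries.
ISG15 (chr1:1013364-1013419, plus strand): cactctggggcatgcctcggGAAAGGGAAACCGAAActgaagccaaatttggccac
IFIT1 (chr10:89392487-89392549, plus strand): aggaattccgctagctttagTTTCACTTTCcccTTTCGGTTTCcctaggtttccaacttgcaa
IFI6 (chr1:27672256-27672368, minus strand): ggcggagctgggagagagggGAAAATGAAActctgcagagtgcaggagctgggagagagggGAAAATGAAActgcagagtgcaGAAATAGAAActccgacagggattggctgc
XAF1 and SAMD9L, which did pass the test, held no full match in the window. Their nearest stretch with 7 of the 8 fixed letters is shown in capitals, 31 and 48 bases before the start.
XAF1 (chr17:6756005-6756034, plus strand): atcggaaaacTTTCAGTTTTgtttccttgc
SAMD9L (chr7:93148414-93148443, minus strand): gttctaaagcAAAACTGAAActgtctatac
At least 7 of the 8 letters, full matches included, were found in the whole window for 82.9% of the 35 genes and for 37.7% of all genes. Full matches alone were found for 62.9% and 4.38%, so a near match is common among all genes. The nearest stretches given here were sought before the start only. All windows shown lie before the RefSeq start site, but all 30 bases of the XAF1 window, 24 of the ISG20 window and 4 of the IFIT1 window also fall in exons of GENCODE 44 transcripts. DDX58 and IFI16 also held 7 of 8 letters, ADAR held 6 and STAT2 held 5.

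The question asked of these genes was whether the library labelled OE-UNC5B carried more or less interferon-stimulated RNA than Vector. Most of the genes tested (25 of 38) did not pass the test of reads described below at any fold. For genes with few reads this does not show equal levels. The others were 10 higher (26.3%) and 3 lower (7.89%), beside 22.8% and 24.2% of all genes tested. Of the 47 genes, 38 had at least 10 reads over both libraries and were tested, and 9 were not. XAF1, a binding partner of the apoptosis inhibitor XIAP, SAMD9L, a growth restraint gene of blood cells, and ISG20, an RNA exonuclease, were at least 2-fold higher with an adjusted p under 0.05. These are 3 of 38 (7.89%), where 522 of all 15384 genes tested (3.39%) were called higher. ISG20 reached the minimum of 10 reads only through the library in which it is high, and with at least 50 reads required, SAMD9L and XAF1 alone were called, 2 of 30 genes, beside 2.92% of all genes higher under that minimum. None of the 38 was called lower, where 521 of all genes (3.39%) were. By the 2-fold line alone the same 3 were higher and IFIT1 was lower, beside 5.15% and 4.79% of all genes. The test is an exact binomial test on reads with Benjamini-Hochberg adjustment over all genes tested. With 1 library per group it compares these libraries and not the conditions, no difference has a replicate check, and its 95% intervals cover counting error only. With a coefficient of variation of 0.2 between libraries assumed, none of the 38 passed, with 0 called and 0 higher or lower at any fold. Of all genes tested, 0.852% were called higher and 0.787% lower under that assumption. In RNA from whole cultures, fewer cells with a transcript and less of it per cell cannot be told apart.

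When the test was read at any fold, 10 of the 38 genes (26.3%) were higher and 3 (7.89%) were lower, where 22.8% of all genes were higher and 24.2% lower. The 10 were XAF1, SAMD9L, ISG20, DDX58, SAMD9, IFI16, IFIH1, STAT2, IRF7 and ADAR. The 3 were BST2, LY6E and IFITM2. The share of higher genes was close to that of all genes. The other 25 did not pass. By sign alone, 18 of the 38 log2 fold changes were above 0 and 20 below. Their median was -0.03 and their range was -1.39 to 2.30, beside a median of -0.01 over all genes tested.

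**Figure D1:**
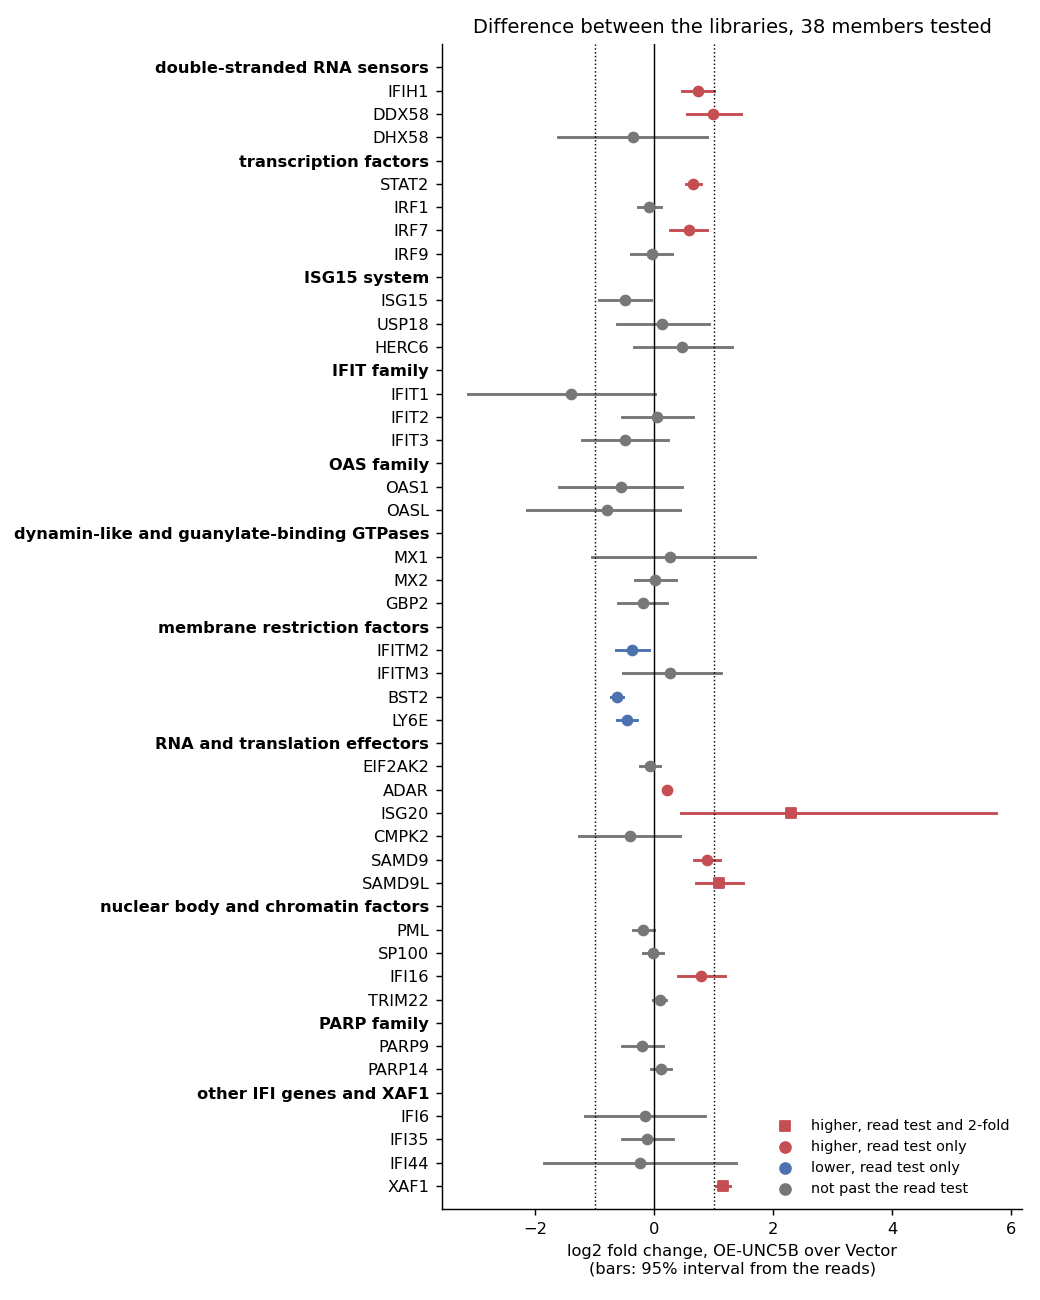
Log2 fold change of each of the 38 tested genes (x axis, library labelled OE-UNC5B over Vector; points) with the 95% interval of the reads (bars), 1 library per group, red for higher, blue for lower and grey for not past the read test, dotted lines at 2-fold. XAF1, SAMD9L and ISG20 (squares) passed the test beyond 2-fold, ISG20 with the widest interval of the 3 (0.45 to 5.75). Most other genes did not pass the read test, some with wide intervals.

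Levels were compared between genes by FPKM, read counts divided by gene length and by library total. A gene was taken as expressed at an FPKM of at least 1 in either library, as silent at no more than 3 reads in each library, and as low otherwise. By this division 22 genes were expressed, 20 were low and 5 were silent. The silent genes were HERC5 (1 and 3 reads), IFIT5 (3 and 3), IFITM1 (2 and 2), IFI44L (1 and 0) and GBP1 (0 and 0). FPKM ranged from 0 for GBP1 to 91.9 for BST2 in Vector, and BST2, ADAR and TRIM22 held the first 3 places in both libraries. XAF1 was the seventh in Vector and the fourth in the library labelled OE-UNC5B, where its FPKM of 10.9 was next to that of TRIM22 (11.1). Among the lowest were genes known as strong interferon targets: IFIT1, OAS1, MX1 and IFI44 had an FPKM under 0.2 in each library. IFI6 was at 0.645 and 0.597.

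**Figure D2:**
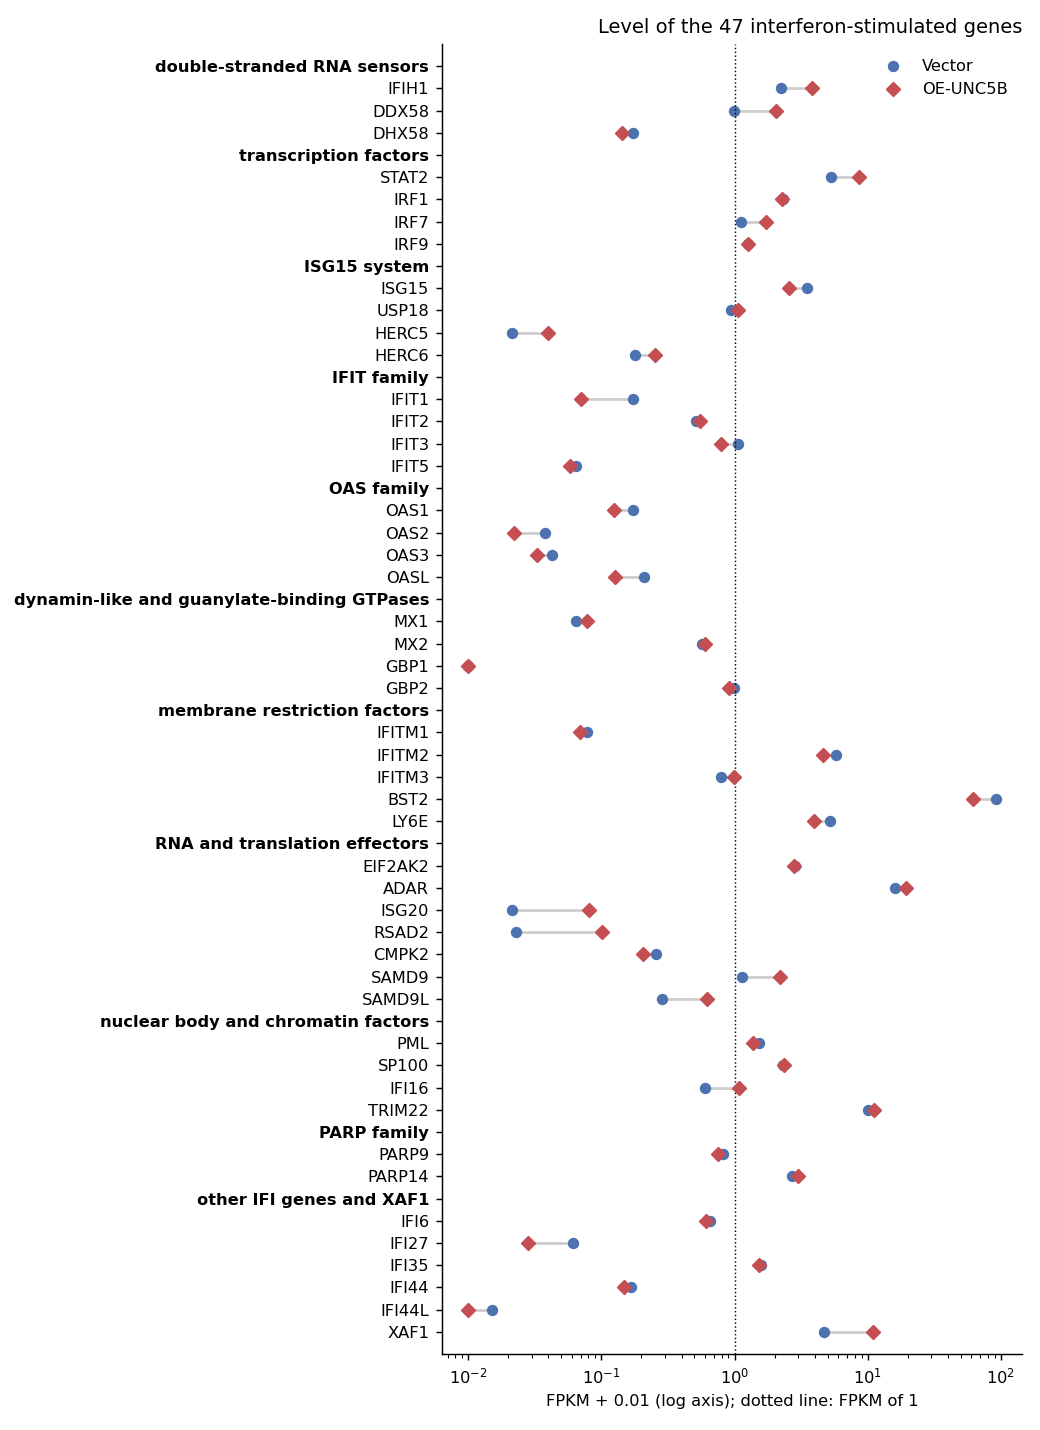
FPKM of all 47 genes (x axis, log scale, 0.01 added so that 0 can be drawn) in Vector (circles) and in the library labelled OE-UNC5B (diamonds), grouped by role, with a dotted line at an FPKM of 1. BST2 stands highest in both libraries, the OAS genes lie below 1, and XAF1 moves from 4.72 to 10.9.

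Summed over the 47 genes, 13390 and 17774 reads were counted, or 993 and 1118 CPM, a ratio of 1.13. A few genes set this sum. ADAR alone gave 25.4% and 26.3% of the reads, BST2 gave 14.5% and 8.36%, and XAF1 gave 6.43% and 12.7%. Without XAF1 the sums were 929 and 976 CPM, a ratio of 1.05, and the median log2 fold change was -0.04.

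The sensors of double-stranded RNA were examined first. Of the 3, 2 passed the test at any fold, both higher, as did 22.8% of all genes. IFIH1, which encodes MDA5, had 173 and 340 reads (FPKM 2.22 and 3.83). Its log2 fold change was 0.74 with an interval of 0.47 to 1.01. DDX58, which encodes RIG-I, had 61 and 144 reads (FPKM 0.988 and 2.05). Its log2 fold change of 0.995 (0.56 to 1.46) lay just under 2-fold with 0.5 reads added, which left it uncalled, and with library totals or DESeq2 size factors in place of TMM it was 1.04 and 1.03 and was called. DHX58, which encodes the regulatory relative LGP2, was low, with 13 and 12 reads.

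Among the transcription factors, 2 of 4 (STAT2 and IRF7) were higher at any fold, beside 22.8% of all genes, and IRF1 and IRF9 did not pass. STAT2, the subunit that gives ISGF3 its activation domain, had 748 and 1393 reads (FPKM 5.28 and 8.62), a log2 fold change of 0.66 (0.53 to 0.79). IRF7, which amplifies type I interferon production, had 136 and 240 reads (FPKM 1.10 and 1.70), a log2 fold change of 0.58 (0.27 to 0.90). IRF9, the DNA-binding subunit of ISGF3, had 135 and 155 reads, and its log2 fold change of -0.04 changed sign to 0.01 with library totals. A gene on the same strand shares 23.9% of the exonic bases of IRF9, and how its reads were divided is not given in the sources used here. IRF1, a target of interferon gamma, had 428 and 476 reads with a log2 fold change of -0.08 (-0.28 to 0.11), and 22.9% of its exonic bases are shared with IRF1-AS1 on the opposite strand.

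None of the 3 tested genes of the ISG15 system passed at any fold, beside 22.8% of all genes higher and 24.2% lower. ISG15, a ubiquitin-like protein that is joined to other proteins, had 99 and 83 reads (FPKM 3.49 and 2.56). Its log2 fold change was -0.49 (-0.93 to -0.06), with an adjusted p of 0.0536 in the exact binomial test, and it passed as lower where at least 50 reads were required. USP18, which removes ISG15 and restrains the interferon receptor, had 27 and 35 reads. HERC5, the ligase that joins ISG15 to its targets, was silent, and its relative HERC6 had 22 and 36 reads.

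The IFIT proteins bind foreign RNA ends and the OAS enzymes make the second messenger that activates RNase L. None of the 5 tested genes of these families passed at any fold, where 22.8% of all genes were higher and 24.2% lower, and all of them except IFIT3 were low in both libraries. IFIT1 had 14 and 6 reads and a log2 fold change of -1.39 (-3.13 to 0.01, adjusted p 0.0818 in the exact binomial test). IFIT2 had 45 and 55 reads, and IFIT3 had 38 and 32 (FPKM 1.05 and 0.775). OAS1 had 20 and 16 reads and OASL had 15 and 10. OAS2 (4 and 2) and OAS3 (5 and 4) were under the minimum for the test. The median log2 fold change was -0.48 for 3 IFIT genes and -0.67 for 2 OAS genes, from at most 55 reads per library.

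The dynamin-like GTPases MX1 and MX2, which block incoming viruses, had 9 and 13 reads and 128 and 153 reads. GBP2, a guanylate-binding protein of the interferon gamma response, had 98 and 101 reads, and GBP1 had none. Their log2 fold changes were 0.27, 0.02 and -0.19 for MX1, MX2 and GBP2, with a wide interval for MX1 (-1.04 to 1.70). None of the 3 passed at any fold, beside 22.8% of all genes higher and 24.2% lower.

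The membrane restriction factors held the 3 genes that were lower at any fold, out of 4 tested, beside 24.2% of all genes, and none was past 2-fold. BST2 (tetherin), which holds budding virus at the cell surface, had 1948 reads in Vector (FPKM 91.9) against 1486 with the OE-UNC5B label (FPKM 61.5). Its log2 fold change was -0.63 (-0.73 to -0.53), the narrowest interval of the 3 lower genes. LY6E, a membrane-anchored protein that limits coronavirus entry, had 634 and 546 reads (FPKM 5.19 and 3.92), a log2 fold change of -0.45 (-0.62 to -0.29). IFITM2, which blocks virus fusion in endosomes, had 236 and 216 reads (FPKM 5.74 and 4.61), a log2 fold change of -0.36 (-0.64 to -0.09). IFITM3 had 23 and 33 reads and IFITM1 had 2 and 2. The IFITM genes lie side by side on chromosome 11, the deposited span of IFITM1 (11:313506-315272) lies within that of IFITM2 (11:307631-315272), and their coding sequences are alike, so the division of reads among the 3 is uncertain. Summed over the 5 membrane genes, CPM was 211 and 144.

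Of 6 tested RNA and translation effectors, 4 were higher at any fold (22.8% of all genes) and 2 of them were called (3.39% of all genes), while EIF2AK2 and CMPK2 did not pass. SAMD9 and SAMD9L are neighbours on chromosome 7 (7:93099513-93118023 and 7:93130055-93148369, both on the minus strand) and encode related proteins that restrain translation and growth. SAMD9 had 271 and 591 reads (FPKM 1.14 and 2.17), a log2 fold change of 0.89 (0.68 to 1.10). SAMD9L had 76 and 191 reads (FPKM 0.277 and 0.610), a log2 fold change of 1.09 (0.70 to 1.496), which fell to 0.83 and was no longer called with a trend on GC content and length subtracted. Both genes were thus higher, and the 15 tested genes within 1 Mb of SAMD9L had a median of 0.09 on the same scale.

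ADAR, which edits adenosine to inosine in double-stranded RNA, had 3402 and 4676 reads (FPKM 15.9 and 19.2), and its log2 fold change of 0.22 (0.16 to 0.29) passed the test on depth with a small difference. EIF2AK2, which encodes the translation-blocking kinase PKR, had 553 and 624 reads and a log2 fold change of -0.06 (-0.23 to 0.11). ISG20 was called from very few reads, 2 and 14, a ratio of 5.94 with a counting interval of 1.36 to 53.8, and its FPKM was 0.0115 and 0.0704. RSAD2 (viperin), which makes a chain-terminating nucleotide, had 1 and 8 reads and was not tested, with a ratio of 6.79 and an interval of 0.910 to 301. CMPK2, which lies beside RSAD2 and supplies its nucleotide substrate, had 27 and 24 reads.

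Of the 4 nuclear body and chromatin factors, 1 (IFI16) was higher at any fold (25%), close to the 22.8% of all genes, and the rest did not pass. IFI16, a nuclear DNA sensor, had 80 and 163 reads (FPKM 0.594 and 1.06), a log2 fold change of 0.79 (0.40 to 1.19), while the median of the 9 tested genes within 1 Mb of it was -0.61. PML, the scaffold of nuclear bodies, had 510 and 531 reads, and SP100, another component of these bodies, had 543 and 630. TRIM22, a ubiquitin ligase, had 1210 and 1523 reads, with a log2 fold change of 0.09 (-0.01 to 0.20). The ADP-ribosyltransferases PARP9 (139 and 143 reads) and PARP14 (530 and 677 reads) had log2 fold changes of -0.20 and 0.12. Neither passed the test at any fold, beside 22.8% of all genes higher and 24.2% lower.

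The last group holds IFI genes named for their induction by interferon, and XAF1. XAF1 (17:6755447-6775647) had 861 reads in Vector (FPKM 4.72) against 2259 with the OE-UNC5B label (FPKM 10.9). Its log2 fold change was 1.15 with an interval of 1.04 to 1.27, the only called gene of the 38 whose whole interval lay beyond 2-fold. The 55 tested genes within 1 Mb of XAF1 had a median log2 fold change of -0.12. IFI35 (88 and 96 reads), IFI6 (18 and 19) and IFI44 (8 and 8) did not pass, and IFI27, with 5 and 2 reads, was not tested. XAF1 was thus 1 of 4 tested genes in this group that was higher at any fold (25%), close to the 22.8% of all genes. The 3 tested IFI genes had log2 fold changes between -0.24 and -0.11.

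**Figure D3:**
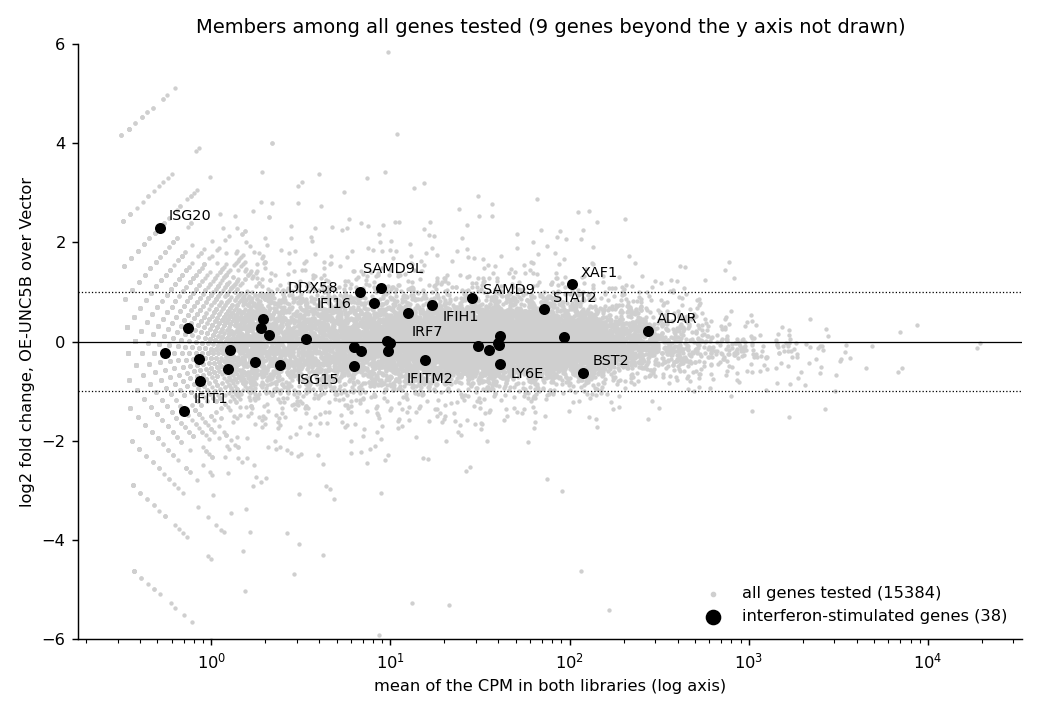
Log2 fold change (y axis, library labelled OE-UNC5B over Vector) against the mean CPM of both libraries (x axis, log scale) for the 15384 genes tested (grey; 9 beyond the y axis are not drawn) and the 38 interferon-stimulated genes tested (black), with dotted lines at 2-fold. The 38 lie within the cloud of all genes, XAF1 just outside its 2-fold line at high CPM and ISG20 among the sparse genes at the left.

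The genes were then divided by the ISRE match. They had been taken by symbol and not by this match, but genes and motifs were both chosen with earlier results of these data known. The 22 genes with a match were mostly low or silent in Molm13 (7 expressed, 10 low, 5 silent), with a median FPKM of 0.159 and 0.114. The 13 genes without a match were mostly expressed (9 expressed, 4 low), with median FPKM of 1.25 and 1.504. Among the 14 tested genes with a match, the median log2 fold change was -0.11 and 3 were higher and 1 lower at any fold. Among the 13 without, the median was 0.22 and 6 were higher and none lower. Of all genes tested, 22.8% were higher and 24.2% lower, and a difference between these small groups was not tested. The 12 genes without a promoter entry, of which 11 were tested, had a median of -0.18. Of the other tested genes with a promoter entry, 130 were higher and 88 lower at any fold of 403 with a match, and 2476 higher and 2664 lower of 9588 without. Of these, 22 of 403 with a match were called higher (5.46%) and 12 lower (2.98%), against 295 (3.08%) and 296 (3.09%) of 9588 without.

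**Figure D4:**
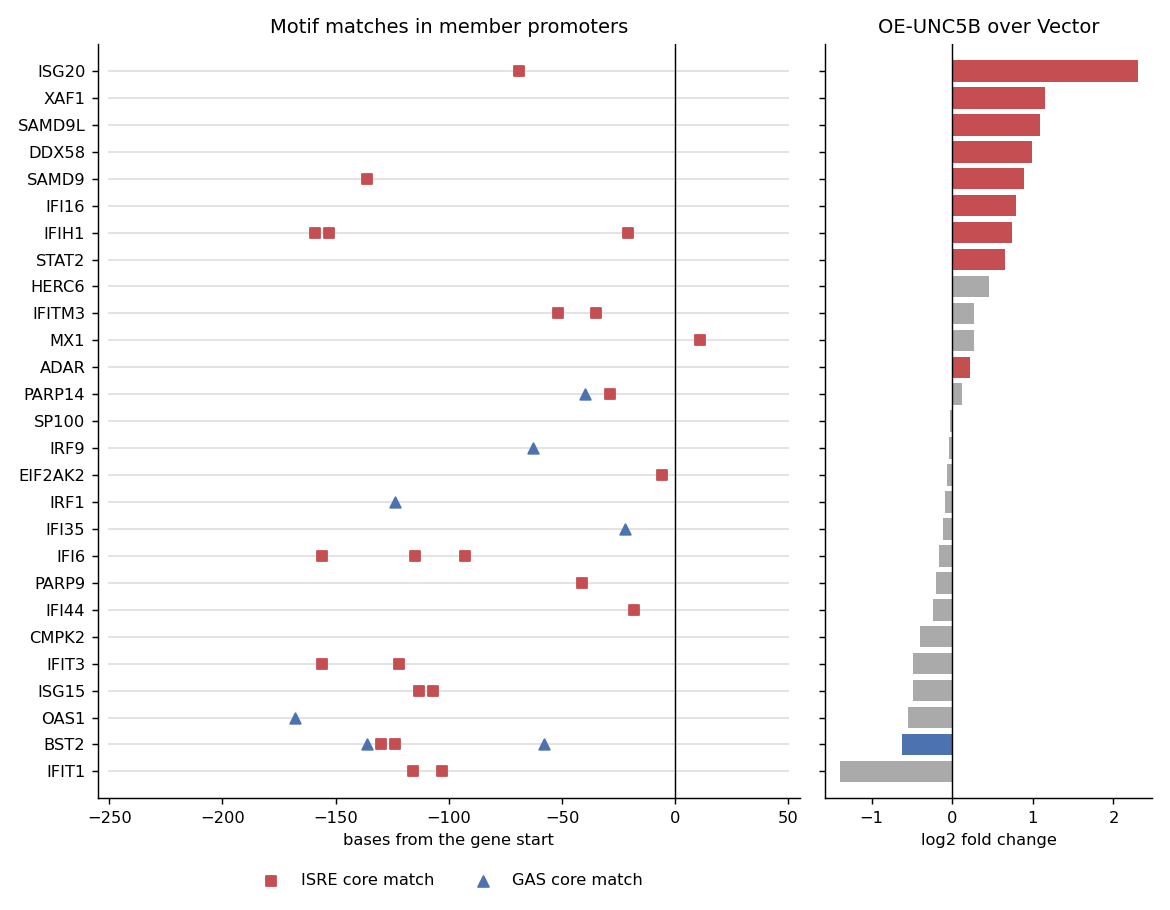
Positions of ISRE and GAS matches relative to the start site (x axis, bases) in the promoter windows of the 27 tested genes with an entry, each drawn with 1 start (its first with an ISRE match or else its first), in order of the log2 fold change shown as bars at the right, red for higher, blue for lower and grey for not past the read test. ISRE matches are found at both ends of the order, for ISG20, SAMD9 and IFIH1 near the top and for BST2 and IFIT1 at the bottom, and genes without one, such as XAF1 and OAS1, also lie at both.

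The genes upstream and beside this response were read from 4 further lists. Of 22 interferon genes, 20 had 0 reads in both libraries, and IFNB1 and IFNL1 had 0 and 1 read each, so that no interferon transcript was above the floor at this depth. All 22 receptor and relay genes were expressed. Of these, 0 were called higher and 1 lower, and 6 were higher (27.3%) and 5 lower (22.7%) at any fold, close to the 22.8% and 24.2% of all genes, with a median log2 fold change of 0.03. Called genes in either direction make up 6.78% of all genes tested. The called gene was SOCS3, a feedback inhibitor of JAK kinases, with 170 and 71 reads (FPKM 4.005 and 1.47), a log2 fold change of -1.49 (-1.92 to -1.09). The receptor subunit IFNAR1 had 1072 and 1285 reads.

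Of 25 genes that sense nucleic acid or carry its signal to interferon genes, 22 were tested, with 1 called higher (4.55%) and 2 lower (9.09%), where 3.39% of all genes were called in each direction. At any fold 5 were higher (22.7%) and 9 lower (40.9%), beside 22.8% and 24.2% of all genes, and the median was -0.02. TLR7, an endosomal receptor for single-stranded RNA, had 8 and 29 reads, a log2 fold change of 1.56 (0.46 to 2.96). TREX1, a DNA exonuclease, had 46 and 12 reads (-2.13, -3.23 to -1.24), and TICAM2, a TLR4 adaptor, had 16 and 0 reads, at least 6.29-fold lower against the floor of 3 reads. TICAM2 reached the minimum of 10 reads only through Vector. Both lower calls are uncertain, since all exonic bases of TREX1 are shared with ATRIP and 78.7% of those of TICAM2 with a readthrough gene, in each case on the same strand.

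A list of 60 further interferon response genes held 48 that were tested, of which 5 (10.4%) were called higher and 1 (2.08%) lower, beside 3.39% of all genes in each direction. At any fold 14 were higher (29.2%) and 12 lower (25.0%), beside 22.8% and 24.2%, and the median was 0.02. DDX60L, a helicase-like gene, had 277 and 854 reads, a log2 fold change of 1.39 (1.19 to 1.59). RNF213, a large ubiquitin ligase, had 528 and 1356 reads (1.12, 0.98 to 1.27), and HELZ2, a helicase and transcriptional coactivator, had 18 and 93 reads (2.10, 1.39 to 2.95). APOBEC3G, a cytidine deaminase with close paralogs beside it, had 19 and 46 reads (1.02, 0.24 to 1.89). The chemokine gene CXCL11 had 0 and 13 reads, at least 3.68-fold higher against the floor, while its neighbours CXCL9 and CXCL10 had at most 1 read in each library. CXCL11 reached the minimum of 10 reads only through the library in which it is high. MNDA, a myeloid nuclear antigen of the IFI16 family, had 541 and 213 reads and a log2 fold change of -1.58 (-1.82 to -1.35), opposite in sign to IFI16.

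**Figure D5:**
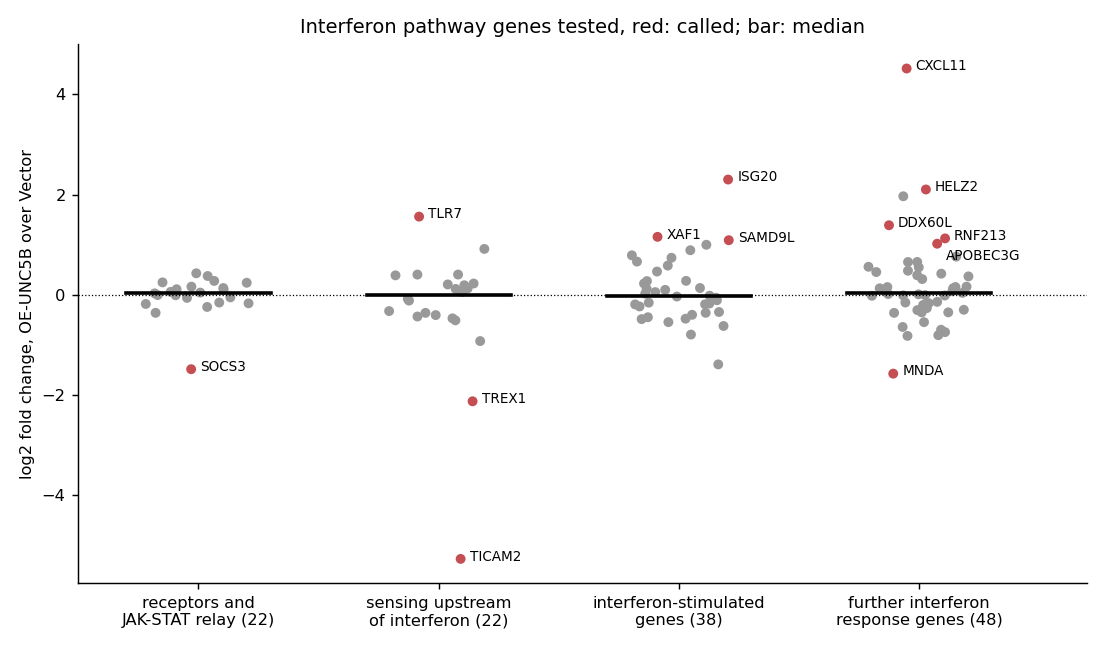
Log2 fold change (y axis, library labelled OE-UNC5B over Vector) of the tested genes of 3 pathway lists and of the 38 interferon-stimulated genes (points, red where called; bars are medians). All 4 medians lie between -0.03 and 0.03, and the values drawn for CXCL11 and TICAM2, each with 0 reads in 1 library, depend on the 0.5 reads added.

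Base composition moved with the differences. Over the 38 genes the GC content of the main transcript and the log2 fold change had a Spearman correlation of -0.33 and a Pearson correlation of -0.23, beside -0.18 and -0.13 over all genes tested; these are across genes of the same 2 libraries, which are not independent replicates. The 10 genes higher at any fold had a median GC content of 42.7% (36.0 to 66.6%), the 3 lower genes 57.3% (56.9 to 63.1%) and the other 25 genes 49.8%. Over 20 bins of all genes by GC content, the median log2 fold change ran from -0.20 to 0.16. With the trend on GC content and transcript length subtracted, a step added after the values were seen, XAF1 was at 1.14 and ISG20 at 2.43, whereas SAMD9L was at 0.83 and was no longer called and DDX58 was at 0.81. The 3 lower genes moved nearer to 0, to -0.43 for BST2, -0.26 for LY6E and -0.16 for IFITM2, and ADAR moved to 0.08, while EIF2AK2 moved away from 0, to -0.47, as did IRF7, to 0.84, and IFITM3, to 0.54. STAT2 stayed near its value, at 0.68. The part of base composition in these differences was not tested further.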

How the data were processed

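RNA-seq of Molm13 was analysed, with 1 Vector library and 1 library labelled OE-UNC5B. Raw read counts of each gene were deposited, without normalization. FPKM values were deposited by the authors beside them. The submitters' processing notes name bcl2fastq 2.19, HISAT2 2.0.4, StringTie 1.3.0 and GRCh38, without their roles. The counting tool, the annotation release and the use of strand are not given in the sources used here. Counts divided by FPKM differed 1.14-fold between libraries for all 10931 genes with at least 50 reads in both, equal to the ratio of the count totals.

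Library totals were multiplied by TMM factors (0.984 and 1.02) from edgeR 4.0.16 under R 4.3.3. A two-sided exact binomial test compared the reads of each of 15384 genes that reached 10 reads over both libraries (scipy 1.17.1), and p-values were adjusted after Benjamini and Hochberg over all of them. A gene was called at 2-fold or more and an adjusted p under 0.05, with 0.5 reads added for log2 fold changes. Intervals are 95% Clopper-Pearson intervals and cover counting error only. With 1 library per group, edgeR's quasi-likelihood test could not be fitted. A gene with 0 reads in 1 library is given as a bound against 3 reads, and one with 1 to 3 reads as a ratio with its interval.

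The 47 genes, the pathway and marker lists and the promoter motifs were chosen with earlier results of these data known. The text names all 47 genes, UNC5B and, of the other pathway lists, each called gene; IFNB1, IFNL1, IFNAR1, CXCL9 and CXCL10 were named after their values were seen. Promoters came from RefSeq (GRCh38.p14), with DDX58 matched as RIGI; exon overlap, length and GC content came from GENCODE 44. The procedure was tested on simulated counts. As alternatives, TMM was replaced by plain totals or by size factors of DESeq2 1.42.0, counts by FPKM plus 0.1 or 1, and the 0.5 reads by 2. Further alternatives were no minimum or one of 50 reads, other folds, edgeR's exact test with an assumed coefficient of variation of 0.2 or 0.4, other motif cores and, added after seeing the data, removal of a trend on GC content and length.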

Additional observations from a re-analysis of the deposited data

How the results depend on the processing

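No paired analysis was possible because each group has 1 library, so that the groups share a single replicate number, and no replicate could be left out. Of the values of single genes under an alternative, 423 kept direction and side of the threshold, 9 gained a call, 9 lost one and 13 changed sign. The FPKM settings also ask for an FPKM of at least 1 in either library, which leaves 22 of the 38 genes and 11564 of all genes, and use the fold alone. Members called higher (3) became 1 with FPKM and 0.1 or 1 added, where ISG20 and SAMD9L were below that minimum, 8 at a fold of 1.5, 1 at a fold of 4 and 0 with an assumed coefficient of variation of 0.2 or 0.4. Members called lower (0) became 1 at a fold of 1.5 (BST2) and 1 with 2-fold alone (IFIT1). The 10 higher and 3 lower at any fold became 0 and 0 with either coefficient of variation, 9 and 4 at 50 reads (ISG15 the added lower gene), and 11 and 3 with library totals or DESeq2. The median log2 fold change of the members became 0.0828 with FPKM and 0.1 added, over the 22 genes left there. Receptor and relay calls (1) became 0 at a fold of 4 and with either coefficient. Sensing calls (3) became 0 with either FPKM setting, whose minimum none of the 3 reached, 1 at 50 reads and 0 at a coefficient of 0.4. Calls among further response genes (6) became 3 and 1 with FPKM and 0.1 or 1 added, 12 and 2 at folds of 1.5 and 4, and 2 and 0 with coefficients of 0.2 and 0.4. Low genes (20) became 13 at an FPKM of 0.5, and GAS matches (9) became 3 with the stricter core. The sign changed for IRF9 (0.00946 with library totals, 0.00941 and 0.00565 with FPKM and 0.1 or 1 added) and SP100 (0.0251 with library totals, 0.0126 with DESeq2, 0.0242 and 0.0176 with FPKM). With the GC content trend subtracted it changed for IRF9 (0.158), IFIT2 (-0.0109), MX2 (-0.0124), PARP14 (-0.0700), IFI6 (0.0479) and IFI35 (0.0956). Over all genes, the 522 higher and 521 lower became 392 and 281 or 165 and 130 with FPKM and 0.1 or 1 added, 359 and 297 at 50 reads, 1298 and 1261 at a fold of 1.5, 144 and 160 at a fold of 4, 792 and 737 with 2-fold alone, and 131 and 121 or 7 and 8 with coefficients of 0.2 or 0.4. With few reads, as for ISG20, RSAD2 and the OAS genes, only large differences could be seen, and the cause of the changes above was not tested.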
